A study of Mus musculus with 18 samples.

Results

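The Notch pathway was examined through 33 genes of the mouse chosen by their place in the pathway, and every probe set whose gene symbol in the platform annotation is one of them was taken. This gave 68 probe sets of the 45137 that are not controls on a pair of Affymetrix arrays, 54 on MOE430 chip A and 14 on MOE430 chip B. Probe sets with a signal of 300 or more on 3 or more of the 9 arrays were tested, which left 63 probe sets of 32 genes among 41553 tested probe sets. The gene without a tested probe set was Hey2, whose signals lay between 26.7 and 467 in the 9 samples. The other 4 probe sets that were not tested included 1 each of Heyl, Lfng and Numb, which reached 300 on fewer than 3 arrays. The last was the chip B copy of an Itch probe set that both chips carry. There were 25 members with more than 1 probe set, and their tested probe sets are given singly or within ranges and counts.

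The RNA came from 3 populations of cells from mouse mammary tissue, with 3 RNA samples each, and each RNA sample was put on both chips. MaSC is the stem cell fraction, from freshly dissociated tissue, sorted by magnetic depletion and flow cytometry, with 1 stem cell per 50 to 100 sorted cells by the submitters' estimate and RNA from 2000 to 4000 cells. MYO is a myoepithelial fraction in the basal position, obtained by immunomagnetic enrichment and flow cytometry at an estimated purity of 94%, similar to MaSC in phenotype and poor in stem cells, with RNA from 3000 to 24000 cells. CFC is the colony forming fraction, a progenitor fraction assayed by colonies in culture and sorted by magnetic depletion and flow cytometry, with 1 colony forming cell per 10 sorted cells and RNA from 3000 to 4000 cells. The labels give no strain, age or stage of the mice. By the submitters' own estimates most sorted cells of MaSC and CFC were not the cell that names the fraction. The labels speak of biological triplicates for CFC alone, so the spread behind the p-values may be partly technical.

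Notch receptors are surface proteins that are activated by ligands of the Jagged and Delta-like families on a neighbouring cell. Activation releases the intracellular part of the receptor through cleavage by an ADAM protease and by gamma-secretase, and this part joins RBPJ and a Mastermind protein in the nucleus to switch on genes such as those of the HES and HEY repressors. Fringe enzymes and protein O-fucosyltransferase add sugars to the receptor and so tune its choice of ligand, while NUMB proteins and ubiquitin ligases limit it. In the mouse mammary epithelium, which has an inner luminal and an outer basal layer, the pathway is known for its part in luminal cell fate.

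The clearest differences lay in the ligands. A chip B probe set of Jag1 and the probe set of Dll1 were higher in MaSC than in CFC. The same Jag1 probe set was higher in MYO than in CFC. The other Jag1 probe sets, on chip A, did not show this. A probe set of Rbpj was also higher when MaSC and MYO were averaged and set against CFC. Some of these differences did not pass the test in other settings, as given below. No receptor, target, fringe, gamma-secretase or inhibitor probe set passed the test in any of the 4 contrasts. The test was limma on log2(signal + 150), fitted over all 9 arrays of a chip and adjusted by the Benjamini-Hochberg method over all tested probe sets of that chip, with a call at an adjusted p under 0.05. Differences are given on that log2 scale with their standard errors, and they understate the change of dim probe sets. In MaSC against CFC 2 of the 63 member probe sets were called higher and 0 lower, where 0.438% of all tested probe sets were called higher and 0.183% lower. In MYO against CFC 1 was called higher and 0 lower, against 0.623% and 0.272% of all probe sets. With the mean of MaSC and MYO against CFC, 3 were called higher and 0 lower, against 0.710% and 0.320%. In MaSC against MYO limma called 0 members, and 0% of all probe sets in either direction. At an unadjusted p under 0.05 that contrast held 1 higher and 2 lower member probe sets, with 804 higher and 856 lower over all probe sets. The contrasts with CFC share the same 3 CFC samples.

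Jag1 encodes Jagged1, a membrane-bound ligand of the Notch receptors. Its chip B probe set 1434070_at had signals of 7456, 22072 and 13456 in MaSC1, MaSC2 and MaSC3 and of 8817, 32183 and 11846 in MYO1, MYO2 and MYO3, against 118, 1888 and 297 in CFC1, CFC2 and CFC3. All 6 MaSC and MYO samples lay above all 3 CFC samples, and 2 of the CFC samples lay below the signal of 300 used as the minimum. The signal averaged 14328 ± 7347 in MaSC and 17615 ± 12706 in MYO, against 768 ± 974 in CFC (SD, n = 3 each). The log2 difference was 4.40 ± 0.62 for MaSC against CFC, which is 21.1-fold (limma adjusted p = 0.000300). It was 4.60 ± 0.62 for MYO against CFC, which is 24.2-fold (limma adjusted p = 7.02e-05). This probe set therefore differed from CFC by about the same amount in both basal fractions, and the direct log2 difference of MaSC minus MYO was -0.20 ± 0.62 (limma adjusted p = 1.00). For the mean of MaSC and MYO against CFC it was 4.50 ± 0.54, or 22.6-fold (limma adjusted p = 8.18e-06), and 0.140% of the chip B probe sets were called higher in that contrast.

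The call for Jag1 in the mean of MaSC and MYO against CFC held in each of the 11 other settings tried and in each of the 9 fits that left out 1 RNA sample. The size of the difference depended on the CFC samples, since the log2 difference of MaSC minus CFC was 3.79 without CFC1 and 5.25 without CFC2, and that of MYO minus CFC 3.99 and 5.45. It depended on the pseudocount as well, with 4.93 at 15 and 3.76 at 450 for MaSC minus CFC. The folds above are therefore values at the pseudocount of 150. Without a trend of variance on signal, the adjusted p was 0.137 for MaSC against CFC and 0.0715 for MYO against CFC. Chip B was scanned on 3 days and each MaSC sample was scanned on a different one. With scan day as a block the log2 difference of MaSC minus CFC was 4.19 (adjusted p = 0.0688), and within scan day 1, which held MaSC1 and all CFC samples, it was 3.60 (adjusted p = 0.266). In that last fit MaSC1 stands alone and is assumed to vary like the other groups.

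The chip A probe sets of Jag1 did not show this difference. Probe set 1421105_at had signals of 1928, 73.2 and 691 in MaSC and 865, 206 and 825 in MYO, against 984, 1197 and 1501 in CFC. Here CFC was the tightest group and all 3 MYO samples lay below it, with log2 differences of -0.90 ± 0.79 for MaSC minus CFC and -0.95 ± 0.79 for MYO minus CFC (limma adjusted p = 0.850 and 0.884). Probe set 1421106_at was dimmer, with 185, 59.8 and 316 in MaSC and 849, 1147 and 119 in MYO, against 59.1, 59.5 and 473 in CFC. Its groups overlapped, and its log2 differences were 0.09 ± 0.72 for MaSC minus CFC and 1.22 ± 0.72 for MYO minus CFC (limma adjusted p = 0.990 and 0.753). The higher Jag1 signal in the basal fractions thus rests on 1 of its 3 probe sets.

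**Figure D1:**
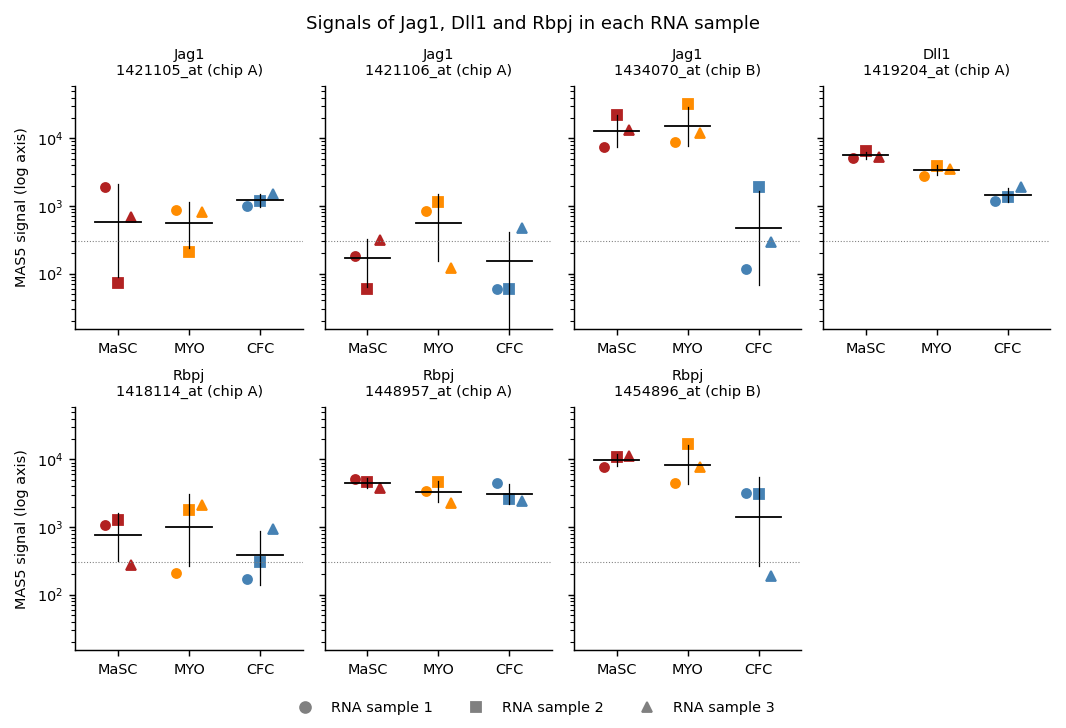
MAS5 signal (log axis) of every probe set of Jag1, Dll1 and Rbpj in each RNA sample of MaSC, MYO and CFC, with the marker shape giving the sample number. Horizontal lines are the means of log2(signal + 150) turned back to signal, vertical lines span 1 SD on that scale, and the dotted line is the signal of 300. For Jag1 1434070_at the 6 MaSC and MYO samples lie between 7456 and 32183 and the CFC samples between 118 and 1888, while the other Jag1 probe sets overlap. For Rbpj 1454896_at the CFC3 sample at 190.4 stands far below the other 8.

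Dll1 encodes a Delta-like ligand and was graded across the populations. Its probe set 1419204_at had signals of 5177, 6430.4 and 5363 in MaSC and of 2789.7, 3960.3 and 3492 in MYO, against 1184, 1347 and 1889.8 in CFC. The 3 populations did not overlap: every MaSC sample lay above every MYO sample, and every MYO sample above every CFC sample. The signal averaged 5657 ± 676 in MaSC and 3414 ± 589 in MYO, against 1474 ± 369 in CFC (SD, n = 3 each). Dll1 rose in MaSC by 1.86 ± 0.43 on the log2 scale relative to CFC, which is 3.62-fold (limma adjusted p = 0.0217). The log2 difference of MYO minus CFC was 1.14 ± 0.43 and did not pass the test (adjusted p = 0.328), nor did that of MaSC minus MYO at 0.71 ± 0.43 (adjusted p = 0.999). The middle place of MYO is thus a description of these 9 samples. For the mean of MaSC and MYO against CFC the log2 difference was 1.50 ± 0.37, or 2.83-fold (limma adjusted p = 0.0232), where 1.31% of the chip A probe sets were called higher.

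The adjusted p of Dll1 lay close to the threshold. For MaSC minus CFC it was 0.203 without the variance trend, and leaving out CFC1, CFC2, MaSC2 or MaSC3 gave 0.0944, 0.0883, 0.134 and 0.0709. With scan day as a block it was 0.0579, and within scan day 1 it was 0.108. On chip A all CFC arrays were scanned on day 1, while 1 MaSC and 1 MYO array were scanned on day 2. Scan day was thus partly tied to population. The log2 difference itself moved little, from 1.73 to 2.03 over the 9 fits with a sample left out.

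The other canonical ligands did not pass the test. Jag2, a second Jagged ligand described because its values were seen, had signals of 396, 1639 and 1495 in MaSC and 1166, 1695 and 127 in MYO, against 280.2, 279.9 and 272 in CFC at probe set 1426430_at. All 3 MaSC samples lay above CFC there while MYO fell on both sides of it, and the log2 difference of MaSC minus CFC was 1.45 ± 0.80 (limma adjusted p = 0.665). At the second Jag2 probe set it was 0.14 ± 0.70. Dll4, a Delta-like ligand best known from blood vessels, had log2 differences between 0.09 and 0.20 against CFC at both probe sets. Over the 8 probe sets of the 4 canonical ligands, 7 lay above 0 in MaSC minus CFC and the same number in MYO minus CFC. The exception in both was Jag1 1421105_at. Of all tested probe sets, 49% and 49.4% lay above 0 in these contrasts. The ligand medians were 0.14 in MaSC minus CFC and 0.87 in MYO minus CFC on the log2 scale. Dlk1 and Dner, EGF-repeat proteins that lack the usual receptor-binding domain of these ligands, ranged from 0.20 to 0.35 in MaSC minus CFC and from -0.72 to 0.88 in MYO minus CFC.

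RBPJ is the DNA-binding protein through which Notch acts in the nucleus. The chip B probe set 1454896_at of Rbpj had signals of 7828, 10975 and 11186 in MaSC and of 4489, 16817 and 7808 in MYO, against 3146, 3113 and 190.4 in CFC. All CFC samples lay below all others, with CFC3 far below CFC1 and CFC2. The log2 difference was 2.59 ± 0.56, or 6.01-fold, for the mean of MaSC and MYO against CFC (limma adjusted p = 0.0439). It was 2.70 ± 0.65 for MaSC minus CFC and 2.47 ± 0.65 for MYO minus CFC, and neither passed (adjusted p = 0.142 and 0.285). CFC3 decided the size: without it the log2 difference for the mean of MaSC and MYO against CFC was 1.50 and the adjusted p was 0.746. The call was also lost without the variance trend (adjusted p = 0.568), with a pseudocount of 15 (0.141), without the filter (0.0824), with scan day as a block (0.463) and within scan day 1 (0.481). Leaving out MaSC1, MaSC2, MaSC3, MYO2 or MYO3 lost it as well, with adjusted p between 0.0502 and 0.160.

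The other Rbpj probe sets lay on chip A and gave smaller differences. Signals at 1448957_at were 5144, 4612 and 3741 in MaSC and 3383, 4699.6 and 2305 in MYO, against 4473, 2641 and 2447 in CFC. The populations overlapped there, and the log2 difference was 0.31 ± 0.38 for the mean of MaSC and MYO against CFC (limma adjusted p = 0.901). At 1418114_at signals were 1066, 1289 and 275 in MaSC and 209, 1794 and 2112 in MYO, against 169.6, 306 and 931 in CFC, with a log2 difference of 0.93 ± 0.71 (adjusted p = 0.802). Maml1, a Mastermind coactivator that binds the RBPJ complex, had log2 differences of 1.87, -0.62 and -0.71 for MaSC minus CFC at its 3 probe sets, none of them called.

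Upstream sequence was available for 26 of the 33 genes, in 33 windows of 250 bases before an annotated transcript start (RefSeq, GRCm38.p6). The windows of the called genes are printed because these genes were called in the same direction, and that of Lfng because it holds all 3 motifs searched. Capitals mark the motifs, and sequences run 5′ to 3′ on the strand of the gene. Jag1 is at chr2:137116521-137116770 on the minus strand, the first of the Dll1 windows at chr17:15375824-15376073 on the minus strand, the first of the Rbpj windows at chr5:53590096-53590345 on the plus strand and Lfng at chr5:140607091-140607340 on the plus strand.
Jag1: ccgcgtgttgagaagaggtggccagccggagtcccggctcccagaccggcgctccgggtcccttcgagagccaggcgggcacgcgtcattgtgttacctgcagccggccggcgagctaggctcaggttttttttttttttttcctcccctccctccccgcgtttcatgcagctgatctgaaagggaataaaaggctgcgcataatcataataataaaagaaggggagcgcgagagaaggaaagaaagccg
Dll1: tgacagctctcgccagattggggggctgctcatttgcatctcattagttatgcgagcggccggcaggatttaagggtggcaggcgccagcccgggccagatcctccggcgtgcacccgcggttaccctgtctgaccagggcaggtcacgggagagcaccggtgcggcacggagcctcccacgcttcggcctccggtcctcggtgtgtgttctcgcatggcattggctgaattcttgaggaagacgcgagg
Rbpj: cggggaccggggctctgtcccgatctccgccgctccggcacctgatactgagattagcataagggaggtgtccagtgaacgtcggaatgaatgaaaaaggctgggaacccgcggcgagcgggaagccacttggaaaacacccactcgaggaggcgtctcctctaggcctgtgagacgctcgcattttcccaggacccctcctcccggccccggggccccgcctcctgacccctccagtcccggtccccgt
Lfng: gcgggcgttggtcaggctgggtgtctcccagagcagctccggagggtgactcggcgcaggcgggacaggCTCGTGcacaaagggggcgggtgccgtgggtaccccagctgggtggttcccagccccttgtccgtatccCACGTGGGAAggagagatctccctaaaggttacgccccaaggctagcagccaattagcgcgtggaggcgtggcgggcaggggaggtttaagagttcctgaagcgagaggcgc
The motifs were GTGGGAA, the core of the site bound by RBPJ, and CACGTG and CACNAG, letters that HES and HEY repressors bind, each on both strands. None of them was found in the Jag1 window, in either Dll1 window or in either Rbpj window, which says only that these letters are not in these 250 bases. In the Lfng window GTGGGAA starts 109 bases before the transcript start and overlaps CACGTG, which starts 112 bases before it, and a reverse-strand CACNAG lies at 181. GTGGGAA was in 4 of the 33 member windows (12.1%), those of Hes5, Hey2, Lfng and Psen2, against 5.42% of 32851 windows of the same length over all genes. CACGTG was in 9.09% of member windows against 6.02% of all, and CACNAG in 36.4% against 36.7%.

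Summed signals of 8 basal epithelial genes on chip A were 394637 to 710218 in MaSC and 444802 to 692312 in MYO, against 12775 to 28758 in CFC, with 8 of 14 tested probe sets called higher and Krt5 (keratin 5) higher by 5.03 ± 0.44 on the log2 scale for the mean of MaSC and MYO against CFC. Those of 8 luminal genes were 127870 to 206103 in MaSC and 39975 to 147800 in MYO, against 437409 to 871279 in CFC, with 5 of 12 called lower and Krt18 (keratin 18) at -2.71 ± 0.38 on that scale. These sums lean on a few bright probe sets. An Acta2 probe set gave 251677 to 529430 in MaSC and 333785 to 473904 in MYO. In the luminal list, a Krt8 probe set gave 141188 to 240112 in CFC and a Krt18 probe set 95288 to 203907. By these markers MYO was basal as labelled, CFC was the most luminal of the 3, and MaSC was basal as well. In bulk RNA, fewer cells of a type and less RNA per cell cannot be told apart. Markers of other cells gave signals in all populations. Summed signals of 10 endothelial genes were 8002 to 13036 in MaSC and 6333 to 14849 in MYO, against 10051 to 16182 in CFC, with 0 of 9 tested probe sets called. For 8 fibroblast genes the sums were 14476 to 33287 in MaSC and 21507 to 70834 in MYO, against 13663 to 24986 in CFC, with 1 of 12 tested probe sets called higher in the mean of MaSC and MYO. For 4 Schwann cell genes they were 21121 to 43032, 33169 to 69779 and 24170 to 30214 in MaSC, MYO and CFC, with 2 of 14 called higher and 1 lower. For 5 adipocyte genes the sums were 8152 to 60147 in MaSC and 4694 to 50740 in MYO, against 6503 to 16871 in CFC, with 0 of 9 called. The highest MaSC and MYO sums lay above the highest CFC sum. Sums of 8 pericyte genes were 7560 to 11672 in MaSC and 9017 to 14076 in MYO, against 8093 to 11953 in CFC, and those of 9 leukocyte genes 5940 to 12377 in MaSC and 7547 to 10106 in MYO, against 4453 to 9284 in CFC. Neither list had a probe set called in the mean of MaSC and MYO against CFC or in MaSC against MYO. Calls in all of these marker lists were counted in those contrasts alone. MAS5 gives no signal of 0, so absence cannot be read from these sums, and the part of these markers in the Jag1, Dll1 and Rbpj differences was not tested.

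Receptor probe sets lay mostly below 0 against CFC, and none was called. Of the 9 probe sets of the 4 receptor genes, 7 lay below 0 in MaSC minus CFC and 6 in MYO minus CFC, and medians were -0.68 and -0.69 on the log2 scale against -0.02 and -0.01 over all tested probe sets. Notch3, one of the 4 receptors, had the largest such difference at probe set 1421965_s_at, whose suffix marks probes shared by more than 1 transcript. Its signals were 999, 917 and 979 in MaSC and 2352, 1543 and 1608 in MYO, against 1873, 3663 and 3903 in CFC. All MaSC samples lay close together and below all 6 others. The log2 difference was -1.50 ± 0.52 for MaSC minus CFC (limma unadjusted p = 0.00710, adjusted p = 0.255) and -0.81 ± 0.52 for MaSC minus MYO. The second Notch3 probe set, 1421964_at, was dimmer and scattered, with 1559, 174 and 393 in MaSC and 71.8, 595 and 411 in MYO, against 936, 283 and 844 in CFC. It overlapped in all pairs, with a log2 difference of -0.21 ± 0.80 for MaSC minus CFC.

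Notch1, the receptor most studied in the mammary gland, was measured by a pair of probe sets. At 1418634_at signals were 2716, 1548 and 567 in MaSC and 1613, 595 and 1911 in MYO, against 3347, 2491 and 2410.0 in CFC. All MYO samples and 2 of the 3 MaSC samples lay below CFC, and the log2 difference for the mean of MaSC and MYO against CFC was -0.98 ± 0.50 (limma adjusted p = 0.577). At 1418633_at signals were 458, 2042 and 107 in MaSC and 235, 352 and 957 in MYO, against 977, 449 and 149.6 in CFC, and the populations overlapped fully.

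Notch4 gave opposite pictures at its 3 probe sets. At 1449146_at signals were 329, 113 and 128 in MaSC and 168, 31.7 and 624 in MYO, against 499.5, 741 and 972 in CFC, so that MaSC lay wholly below CFC (log2 difference -1.40 ± 0.72, limma adjusted p = 0.623). At 1456263_at they were 2652, 1079.8 and 889 in MaSC and 975, 687 and 447 in MYO, against 549, 180.1 and 682 in CFC, so that MaSC lay wholly above it (log2 difference 1.41 ± 0.73, adjusted p = 0.626). These probe sets assign the order of the populations in opposite ways, and neither passed the test. The Notch4 probe set on chip B, 1436901_at, had 382, 126 and 849 in MaSC and 143, 1426 and 413 in MYO, against 1226, 438 and 1459 in CFC. It overlapped in all pairs. Notch2 overlapped at both of its probe sets, with log2 differences of -0.68 and -0.16 for MaSC minus CFC.

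Among the targets, Hes1 separated CFC from the rest in rank, though not by the test. Hes1 encodes a repressor that Notch induces in many tissues, and its probe set had signals of 2009, 2076 and 1388 in MaSC and of 922, 1784 and 1546 in MYO, against 2657, 2750.0 and 3448 in CFC. All 3 CFC samples lay above all 6 others. The log2 difference was -0.66 ± 0.50 for MaSC minus CFC and -1.02 ± 0.50 for MYO minus CFC (limma unadjusted p = 0.0496, adjusted p = 0.626). For the mean of MaSC and MYO against CFC it was -0.84 ± 0.43 (adjusted p = 0.581).

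Hey1, another repressor induced by Notch, showed no order. Its signals were 412, 676 and 172 in MaSC and 313, 1636 and 90.2 in MYO, against 1401, 121 and 488 in CFC, and the populations overlapped in all pairs, with log2 differences of -0.28 ± 0.84 for MaSC minus CFC and -0.14 ± 0.84 for MYO minus CFC. The largest target difference was that of Heyl, a further HEY repressor, singled out here after its values were seen. At 1438886_at Heyl had 3224, 1741 and 1081 in MaSC and 1995, 54.7 and 376 in MYO, against 421, 259.8 and 312 in CFC. MaSC lay wholly above CFC, while MYO spanned both, and the log2 difference of MaSC minus CFC was 2.06 ± 0.80 (limma unadjusted p = 0.0157, adjusted p = 0.389). A second Heyl probe set, 1419302_at, gave 0.60 ± 0.76. Hes5, Hes6 and Nrarp (an inhibitor that Notch itself induces) had log2 differences between -1.01 and 0.47 in MaSC minus CFC and between -1.32 and 0.89 in MYO minus CFC. Of the 10 tested target probe sets, 6 lay below 0 in MaSC minus CFC and 7 in MYO minus CFC. Over all tested probe sets, 49% and 49.4% lay above 0.

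**Figure D2:**
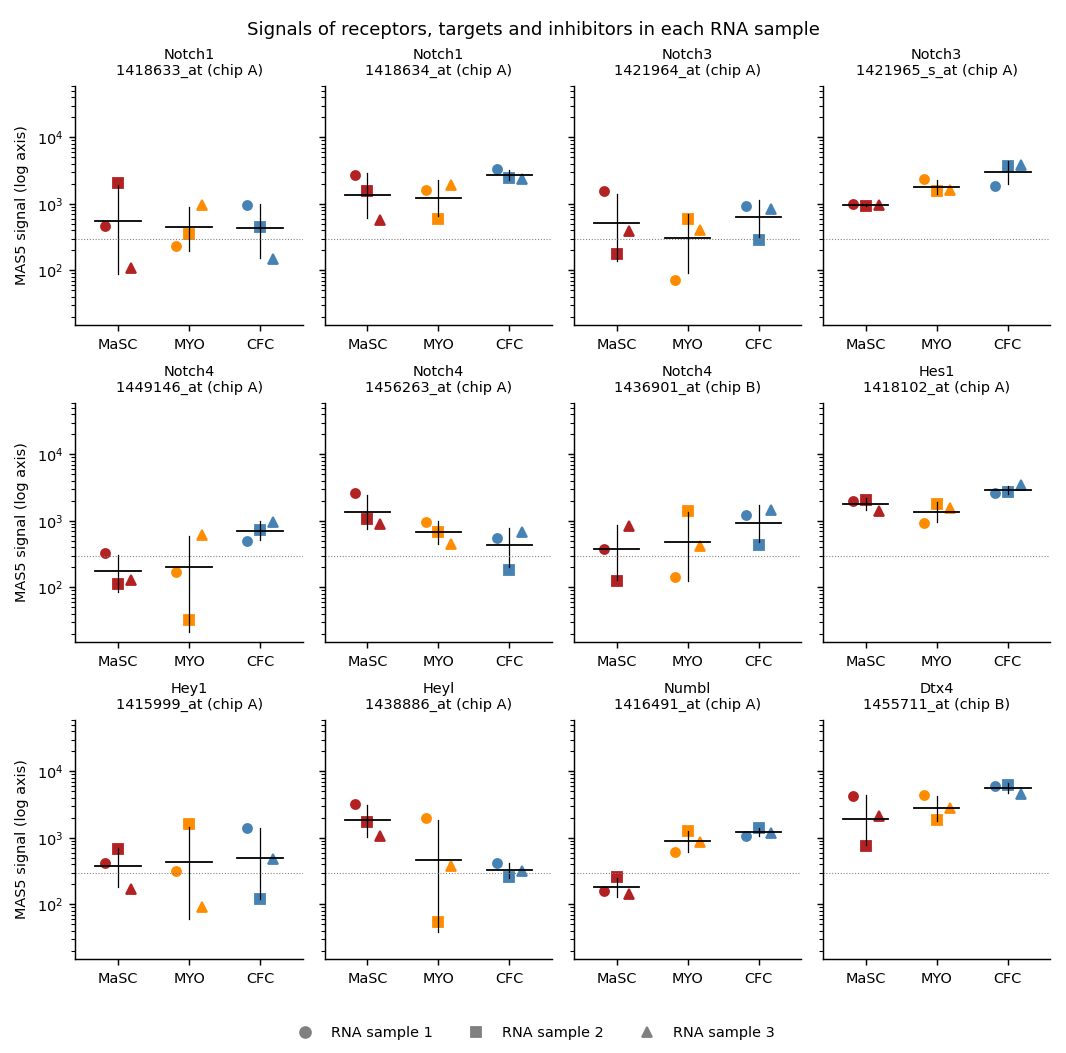
MAS5 signal (log axis) of the receptor, target and inhibitor probe sets described in the text, in each RNA sample of MaSC, MYO and CFC. Horizontal lines are the means of log2(signal + 150) turned back to signal, vertical lines span 1 SD on that scale, and the dotted line is the signal of 300. The CFC samples of Hes1, at 2657 to 3448, lie above the other 6, the MaSC samples of Numbl, at 141 to 259, lie below the other 6, and the Notch4 probe sets disagree in direction.

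Among the negative regulators was Numbl, whose product is related to NUMB, a cytoplasmic inhibitor of Notch. It was the member probe set whose 3 MaSC samples all lay outside the range of the other 6 samples with a mean at least 1 on the log2 scale from both other means. How many of all tested probe sets meet this rule was not counted. Numbl had signals of 158, 259 and 141 in MaSC and 620.2, 1287 and 853 in MYO, against 1080.5, 1406 and 1197 in CFC. All MaSC samples lay below the signal of 300 and below all 6 others. The log2 difference was -2.04 ± 0.72 for MaSC minus CFC (limma unadjusted p = 0.00814, adjusted p = 0.275) and -1.64 ± 0.72 for MaSC minus MYO (unadjusted p = 0.0304, adjusted p = 0.999). Neither passed the test, and MYO minus CFC was -0.41 ± 0.72. Numb itself overlapped in all pairs, with -0.31 ± 0.58 for MaSC minus CFC and -1.12 ± 0.58 for MYO minus CFC.

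The Deltex and Itch ubiquitin ligases act on Notch receptors and their traffic. At Dtx4 1455711_at all MaSC and MYO samples ranked below CFC, with signals of 4254, 752 and 2134 in MaSC and 4353, 1834 and 2783 in MYO, against 6095, 6218 and 4556 in CFC. Its log2 difference was -1.46 ± 0.59 for MaSC minus CFC (limma unadjusted p = 0.0199, adjusted p = 0.905), and like Dtx1 and Itch it is given per sample because its values were seen. At the other Dtx4 probe set, 1436545_at, the difference was -0.61 ± 0.56 and MaSC again lay wholly below CFC. Dtx1 at 1425822_a_at had 765, 1119.9 and 629 in MaSC and 1359.8, 2309.9 and 2432 in MYO, against 1529, 2074 and 1225 in CFC, with MaSC below all others and a log2 difference of -1.14 ± 0.56 for MaSC minus MYO (adjusted p = 0.999). A second Dtx1 probe set, 1458643_at, overlapped in all pairs and gave 0.42 ± 0.74 for MaSC minus MYO. Dtx3 ran the other way, at 1.10 ± 0.52 for MaSC minus CFC (adjusted p = 0.567). Over the 11 probe sets of the 6 genes of this class, 9 lay below 0 in MaSC minus CFC and 7 in MYO minus CFC. The shares of all tested probe sets above 0 were 49% and 49.4%.

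Itch gave a check between the chips, since both carry its probe set 1415769_at. Its chip A signals were 4554, 2121 and 2231 in MaSC and 3799, 2182 and 3248 in MYO, against 2329, 1994 and 394 in CFC. On chip B the same RNA samples gave 3041, 6405 and 3785 in MaSC and 4101, 4485 and 4079.9 in MYO, against 6230.2, 3638 and 8579.7 in CFC. CFC3 differed most between the chips, at 21.8-fold higher on chip B, and the order of the populations turned round. CFC3 was also the sample that decided the Rbpj value on chip B, though there its signal was the lowest and here the highest. Its labelled RNA concentration, in a unit the labels do not state, was the lowest of all the RNA samples. A common source was not tested. The chip A log2 difference of this Itch probe set, the tested one, was 1.05 ± 0.55 for MaSC minus CFC (limma adjusted p = 0.637). The other tested Itch probe sets, all on chip B, lay on the opposite side of 0. For MaSC minus CFC they gave -0.12 ± 0.89 at 1431316_at, -0.44 ± 0.89 at 1440582_at and -0.80 ± 0.71 at 1459332_at.

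Genes that modify or cut the receptor did not pass the test. Lfng and Rfng encode fringe enzymes, and Rfng at 1421160_a_at had a log2 difference of -1.40 ± 0.65 for MYO minus CFC, with all MYO samples below CFC (limma adjusted p = 0.564). At its second probe set, 1460704_at, the same difference was 1.09 ± 0.79, so the direction was not shared. Lfng, given for its upstream sequence, had signals of 2832, 1658 and 1631 in MaSC and 473, 775 and 2109 in MYO, against 671, 1532 and 1789.7 in CFC, which overlapped in all pairs. Mfng, the remaining fringe, had log2 differences of 0.14 and 0.80 for MaSC and MYO minus CFC. Gamma-secretase was represented by Psen2, one of its alternative catalytic subunits, and by Ncstn and Aph1a, and their 7 probe sets ranged from -1.50 to 1.05 in MaSC minus CFC. The lowest of these was Ncstn 1418570_at (adjusted p = 0.554). Furin, the protease that makes the first cut in the receptor, had the smallest standard error of the member probe sets, with log2 differences of -0.32 ± 0.41 for MaSC minus CFC and 0.19 ± 0.41 for MYO minus CFC. Pofut1, which adds the fucose that fringes extend, ranged from -0.58 to 1.11 over its 3 probe sets in MaSC minus CFC.

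**Figure D3:**
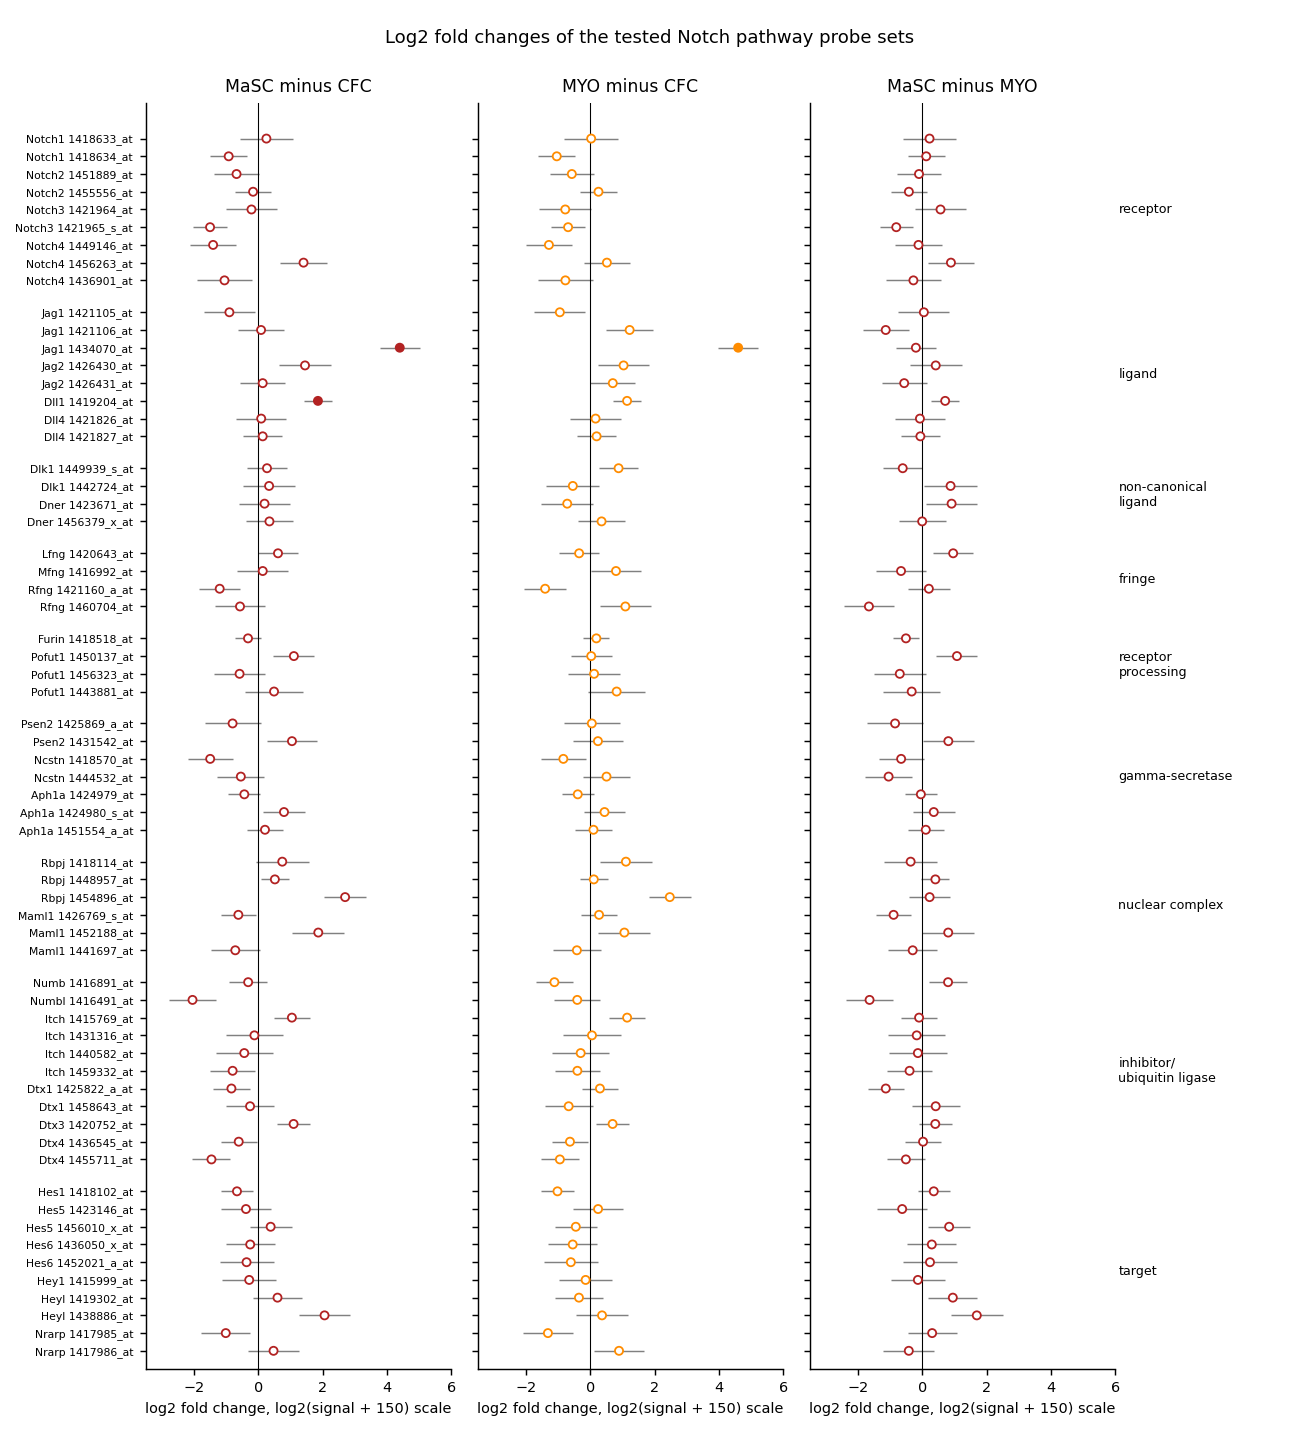
Log2 difference on the log2(signal + 150) scale (horizontal axis) with its standard error for each of the 63 tested member probe sets, grouped by role, in MaSC minus CFC, MYO minus CFC and MaSC minus MYO. Filled points passed the test. They are Jag1 1434070_at at 4.40 and Dll1 at 1.86 in MaSC minus CFC and Jag1 1434070_at at 4.60 in MYO minus CFC, with none in MaSC minus MYO.

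By rank alone, 8 member probe sets in MaSC lay wholly above CFC and 7 wholly below it, where 5.58% and 6.29% of all tested probe sets did. Those above belonged to Notch4, Jag1, Jag2, Dll1, Heyl, Rbpj, Maml1 and Pofut1, and those below to Notch3, Notch4, Hes1, Numbl, Dtx1 and Dtx4. In MYO against CFC 3 lay above (Jag1, Dll1 and Rbpj, background 5.77%) and 5 below (Notch1, Jag1, Hes1, Rfng and Dtx4, background 6.22%). In MaSC against MYO 2 lay above (Dll1 and Heyl, background 4.28%) and 5 below (Notch3, Numbl, Dtx1, Ncstn and Furin, background 4.37%). These backgrounds are for pairs of populations. For 1 population outside the range of the other 6 samples, as described for Hes1, Dtx4, Notch3, Numbl and Dtx1, the share of all probe sets was not counted. The share of members with an absolute log2 difference of at least 1 was 30.2% in MaSC minus CFC against 19.9% of all probe sets, and 11.1% in MaSC minus MYO against 16.7%. Direction was balanced: the median log2 difference of the members was -0.16 in MaSC minus CFC and 0.05 in MYO minus CFC, against -0.02 and -0.01 over all probe sets.

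The spread between samples of a population was much like that of other probe sets, with a median pooled SD of 0.891 for the members and 0.872 for all tested probe sets on the log2 scale. Of the 23 members with more than 1 tested probe set, 10 had all of them on the same side of 0 in the mean of MaSC and MYO against CFC (43.5%), against 40.2% of 8216 genes. In MaSC minus CFC these shares were 56.5% and 39.1%. A member's direction at a single probe set was therefore often not shared by its others. The highest of the 3 population means fell in MaSC for 18 member probe sets, in MYO for 22 and in CFC for 23.

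**Figure D4:**
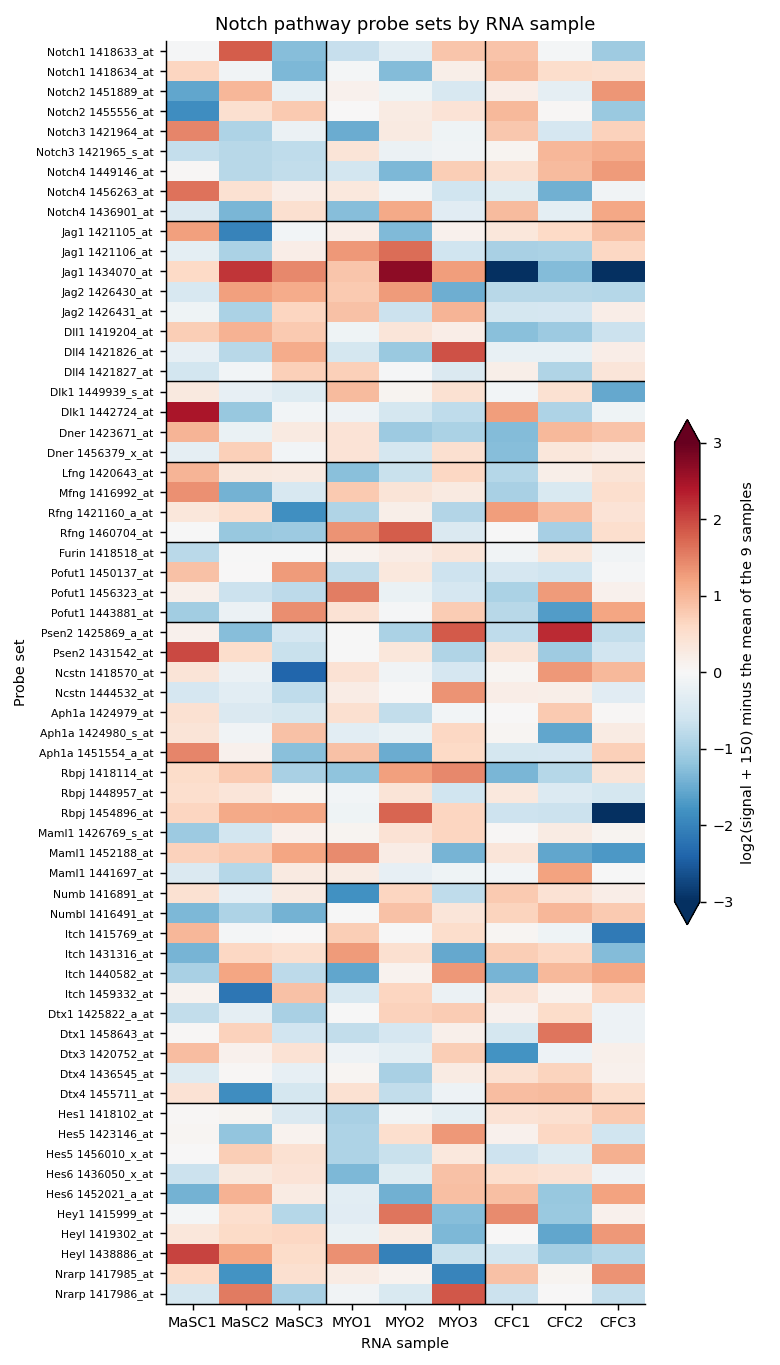
Log2(signal + 150) of each of the 63 tested member probe sets in each RNA sample (columns) minus the mean of the 9 samples, coloured from blue (lower) to red (higher) and limited to 3 on either side, with lines between roles and populations. Jag1 1434070_at is red in all MaSC and MYO samples and blue in all CFC samples. Other rows that separate CFC from the rest are Dll1 and Rbpj 1454896_at, where its samples lie wholly below the other 6. For Hes1 and Dtx4 1455711_at they lie wholly above the other 6. The share of all probe sets that separate CFC in this way was not counted.

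The rest of the pathway was searched through a further 63 genes, other ligands, ADAM proteases, gamma-secretase subunits, Mastermind and corepressor proteins, ligand ligases and further HES genes among them. Of these, 53 had a tested probe set, 116 in all, and none was called in any of the 4 contrasts. Over all tested probe sets at most 0.710% were called in either direction, so few or no calls would come from a list of this length. Like the members, this list was chosen with earlier results of these data known. The smallest limma adjusted p was 0.455 in MaSC minus CFC, for Kat2b (a histone acetyltransferase of the Notch complex) at -1.39 ± 0.58 on the log2 scale. In MYO minus CFC it was 0.316, for Adam10 (the protease that sheds the receptor's outer part) at -1.34 ± 0.50. At an unadjusted p under 0.05 there were 2 higher and 2 lower in MaSC minus CFC and 2 higher and 4 lower in MYO minus CFC. These were 3.45% and 5.17% of the list, against 6.75% and 6.61% of all tested probe sets. The median log2 differences of the 116 probe sets were -0.03 in MaSC minus CFC and 0.10 in MYO minus CFC.

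The arrays were alike in brightness after the authors' scaling. Between 70.0% and 75.6% of probe sets reached a signal of 300 on the chip A arrays and between 76.9% and 80.4% on the chip B arrays. For the 100 probe sets that the chips share, the SD of the centred log2 difference between the chips ranged from 0.607 in CFC2 to 1.11 in MaSC1. In CFC3 it was 0.99. All 18 handling records named the RNA sample and chip of the label. With 9 arrays per chip, precision is limited by their number.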

How the data were processed

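RNA of 9 samples from 3 mouse mammary populations was measured on chips A and B of the MOE430 set, 18 arrays in all. The deposited values are intensities, 1 signal per probe set and array on a linear scale, made by the authors with MAS5, the only tool in the submitters' processing notes, with version and target not given in the sources used here. Their mean after removal of 2% at each end was equal on all arrays, so the authors' scaling was kept. The deposited handling records (other text fields) gave scan days. Detection calls were not used here.

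A pseudocount of 150 was added before log2, and a probe set was tested if 3 of 9 arrays reached 300. Controls were left out, and the 100 probe sets on both chips were tested on chip A. The test was that of limma 3.58.1 under R 4.3.3 (lmFit, and eBayes with a trend), one fit per chip with all 9 arrays and 6 residual degrees of freedom before moderation, with Benjamini-Hochberg adjustment within each chip. The scripts were tested on simulated data. Gene symbols came from the platform annotation, updated through Entrez identifiers with a GRCm38.p6 table: of 45137 probe sets 35041 had 1 symbol, 936 several and 9160 none, and 34837 were matched. Probe sets with several symbols were not named.

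Samples were grouped by their titles. Replicate numbers were not treated as pairs in the main fit. The deviations of samples with the same number correlated between -0.113 and 0.118. Those of samples with different numbers were not compared, so whether the numbers pair the samples was not settled. The members and lists were chosen with earlier results of these data known. Values per sample are given for called members, for members with a probe set whose 3 samples of 1 population lay outside the range of the other 6 with a mean at least 1 on the log2 scale from both other means, and for Notch1, Notch3, Notch4, Jag1, Dll1, Hes1, Hey1 and Rbpj. Values per sample of Jag2, Heyl, Dtx1, Dtx4, Itch and Lfng fall outside this rule and were chosen after they were seen. Alternatives covered the pseudocount, the filter, quantile normalization, the variance trend, array weights, the samples fitted, replicate and scan day blocks, left-out samples and the representative probe set. Protein sequences were not used here.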

Additional observations from a re-analysis of the deposited data

How the results depend on the processing

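The members called higher in MaSC against CFC numbered 2, and 0 without the variance trend, 0 with a scan day block and 0 within scan day 1, where chip B has MaSC1 alone, assumed to vary like the other groups, and 1 to 2 with each RNA sample left out. In the mean of MaSC and MYO against CFC they numbered 3, and 1 under each of those 3 settings, and 1 to 3 with a sample left out. In MYO against CFC the 1 call became 0 without the trend. The cause of these losses was not tested. With the filter at 750, 3 were called in MaSC against CFC, Rbpj 1454896_at among them (adjusted p = 0.0243). No member was called lower, or called between MaSC and MYO, in any setting, and no called value reversed. The replicate block changed no member call, and with it Jag1 1434070_at stood at 4.40 ± 0.50 in MaSC minus CFC (limma adjusted p = 1.42e-05), against 4.40 ± 0.62 without it. The signals of this probe set were lowest in sample 1 and highest in sample 2 of each population. Whether this reflects paired samples was not tested. Over the alternatives other than left-out samples, the adjusted p of the mean of MaSC and MYO against CFC reached at most 0.0174 for Jag1 1434070_at, 0.164 for Dll1 and 0.568 for Rbpj 1454896_at. Over all probe sets the calls without the trend were 33 higher and 6 lower in MaSC against CFC, where the main count was 182 and 76, and 87 and 31 in MYO against CFC, where it was 259 and 113. The median over all probe sets moved by less than 0.1 on the log2 scale in every setting. Single probe sets were followed only if they met the rule for values per sample by being called, set apart or of a gene always given. Among these, differences that were not called changed sign 64 times, over 13 probe sets. They include Jag1 1434070_at in MaSC minus MYO, from -0.58 to 0.35 with a sample left out. The other tested member probe sets were not followed singly. Represented by its chip A probe set of highest signal, Jag1 was not called, so 1 gene was called in MaSC against CFC and 2 with the brightest probe set of either chip. Within scan day 2 each chip had 1 MaSC and 1 MYO array, so no test was made. Signals below 300, as for Jag1 1434070_at in CFC1 and CFC3 and Numbl in all MaSC samples, lie under the minimum used here, and how far they stand above background was not measured.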
